A study of Mus musculus with 22 samples.

Results

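The 7 genes described here are the mouse Hox genes of paralog groups 3 and 4, chosen by name as all members of those groups among the Hox clusters. Paralog group 3 holds Hoxa3, Hoxb3 and Hoxd3, and paralog group 4 holds Hoxa4, Hoxb4, Hoxc4 and Hoxd4. They are 7 of the 39 Hox genes, and of 55141 Ensembl genes in the count tables.

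RNA was measured by sequencing in 22 libraries of 10 groups, all made from mouse embryonic stem (mES) cells that were either wild type (wt) or labelled Hox-/-, a genotype said to lack all Hox function (BADC in the titles, which the labels do not spell out). The mES cells of both genotypes (2 libraries each) were cultured with LIF at 100 ng/ml, CHIR99021, which inhibits the kinase GSK-3, at 3 µM, and PD0325901, which inhibits MEK, at 1 µM. Adherent cultures of both genotypes (3 libraries each) were differentiated towards endoderm with 100 ng/ml Activin A and 3 µM CHIR99021, added at 24 h and again at 72 h, and were collected at 120 h. Gastruloids are stem cell aggregates used as models of the early embryo. They were treated with Activin A (both genotypes) or Chiron (wt alone), no dose being given in the labels, and each of these was collected at 96 h (2 libraries) and 120 h (2 libraries). The number of clones per genotype is not given in the sources used here, nor is it said whether replicates came from separate cultures, so p-values measure the spread between these libraries, which may be technical. Apart from the mES cells, the labels call every group mixed cells. In such bulk RNA, fewer cells of a type and less RNA per cell cannot be told apart.

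Hox genes encode homeodomain transcription factors that give cells an identity along the head-to-tail axis, and their position within a cluster follows the order in which they are switched on and where along the body they are expressed. Genes at matching positions in the clusters derive from a common ancestor and form a paralog group, whose members share much of their function. Groups 3 and 4 are switched on after groups 1 and 2 and act in the hindbrain, the neck vertebrae and the pharyngeal endoderm and arches, and retinoic acid and Cdx factors are among their known inducers.

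Library totals lay between 9.11 and 28.8 M counts (M, mega), and the 96 h gastruloid libraries were deeper than the 120 h ones. Levels are given as CPM, counts scaled to a common library total. Summed over the 39 Hox genes, Hox-/- Activin A gastruloids at 96 h were at 103.1 CPM against 642.6 CPM in wt, and the genotypes stood further apart at 120 h and in endoderm cultures. The lines also differed outside the Hox clusters: Ddx3y, Eif2s3y and Uty, all on the Y chromosome, held 266 counts or more in every wt library and at most 3 in every Hox-/- library. The mES list (6 markers such as Pou5f1 and Nanog) summed to 5306 to 5515 CPM in mES libraries. The endoderm list (8 markers such as Sox17 and Foxa2) summed to 580 to 604 CPM in wt endoderm cultures and 308 to 327 CPM in Hox-/- ones, beside 720 to 844 and 209 to 228 CPM of the mES list.

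The 7 genes lie on 4 chromosomes, and the spans in the deposited tables equal those of the mm10 gene models of GENCODE M21. Hoxa3 (ENSMUSG00000079560, chr6:52169062-52213115, minus strand) spans Hoxa4 (ENSMUSG00000000942, chr6:52189671-52191753, minus strand), Hoxa5 and Hoxa6 in its introns and between its exons. Hoxb4 (ENSMUSG00000038692, chr11:96318267-96321638) precedes Hoxb3 (ENSMUSG00000048763, chr11:96323326-96347930) on the plus strand. Hoxd3 (ENSMUSG00000079277, chr2:74711927-74748271) contains Hoxd4 (ENSMUSG00000101174, chr2:74721978-74729160), and Hoxc4 (ENSMUSG00000075394, chr15:103018934-103036852) is the Hoxc member, all on the plus strand. No exon base of the 7 genes is shared with another listed gene on the same strand. On the opposite strand, 57.8% of the exon bases of Hoxb3 are overlapped by Hoxb3os, 25.8% of those of Hoxa3 by Hoxaas2, Hoxaas3 and Gm29430, 16.0% of those of Hoxa4 by Gm29430, and 8.85% of those of Hoxd3 by Hoxd3os1. Whether the authors counted by strand is not given in the sources used here, so the levels of these 4 genes are uncertain to that extent, and those of Hoxb4, Hoxc4 and Hoxd4 are not affected.

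Promoter sequences from RefSeq (GRCm38.p6) were matched for 5 of the 7 genes, Hoxb3 and Hoxa4 being the other two. They are shown because these 5 genes all rose from 96 h to 120 h of Activin A in wt and because Cdx factors and retinoic acid receptors bind short motifs that can be searched for. Each line gives the 250 bases before the RefSeq start site, 5′ to 3′ on the gene's strand, in mm10 coordinates: chr6:52213068-52213317 (minus strand) for Hoxa3, and on the plus strand chr2:74711743-74711992 for Hoxd3, chr11:96318017-96318266 for Hoxb4, chr15:103034145-103034394 for Hoxc4 and chr2:74721728-74721977 for Hoxd4. The Hoxc4 window lies inside the span of the gene given above, which starts at chr15:103018934, and the start of that span was not searched. Capitals mark motif matches.
Hoxa3: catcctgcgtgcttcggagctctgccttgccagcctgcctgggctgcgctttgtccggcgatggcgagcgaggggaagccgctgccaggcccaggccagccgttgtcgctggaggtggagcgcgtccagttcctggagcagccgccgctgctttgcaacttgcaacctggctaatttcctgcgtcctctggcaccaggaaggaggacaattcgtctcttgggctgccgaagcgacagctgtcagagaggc
Hoxd3: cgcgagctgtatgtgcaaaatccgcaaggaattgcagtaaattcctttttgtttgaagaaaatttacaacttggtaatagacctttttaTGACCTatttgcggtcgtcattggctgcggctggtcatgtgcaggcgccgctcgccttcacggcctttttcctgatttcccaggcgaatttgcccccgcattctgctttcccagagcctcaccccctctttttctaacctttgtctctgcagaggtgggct
Hoxb4: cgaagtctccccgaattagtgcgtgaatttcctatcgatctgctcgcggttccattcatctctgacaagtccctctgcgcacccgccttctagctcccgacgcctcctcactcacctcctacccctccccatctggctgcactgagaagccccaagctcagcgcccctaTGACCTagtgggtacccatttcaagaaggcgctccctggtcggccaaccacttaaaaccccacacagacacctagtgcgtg
Hoxc4: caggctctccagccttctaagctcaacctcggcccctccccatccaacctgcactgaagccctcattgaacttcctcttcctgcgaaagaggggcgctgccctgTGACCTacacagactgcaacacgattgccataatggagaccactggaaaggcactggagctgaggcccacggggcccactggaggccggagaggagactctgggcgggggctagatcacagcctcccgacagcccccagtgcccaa
Hoxd4: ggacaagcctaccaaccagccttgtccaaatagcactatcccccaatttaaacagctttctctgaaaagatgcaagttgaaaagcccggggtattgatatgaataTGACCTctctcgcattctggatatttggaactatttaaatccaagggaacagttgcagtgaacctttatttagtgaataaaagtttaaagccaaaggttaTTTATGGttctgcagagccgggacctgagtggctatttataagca

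The motifs were searched on both strands of these 250 bases and the 50 that follow. TTTATGG, a Cdx-type motif, matched in Hoxd4 alone of the 5, with its first base at position -45 from the start site and again at 21. It is present in 2.75% of 32851 promoters of the same length. TTTATAG, present in 3.63% of promoters, matched none of the 5. AGGTCA in direct repeat, 5 bases apart, the arrangement bound by retinoic acid receptors, matched none of the 5 and 3 of all promoters. A single AGGTCA, searched after that and read as TGACCT on the strand shown, matched in Hoxd3 (position -161), Hoxb4 (-81), Hoxc4 (-146) and Hoxd4 (-145), and in 16.3% of all promoters. Hoxa3 held none of the 4 motifs. A match describes letters in this window and not a binding site.

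In mES cells the genes were near the limit of detection, with the exception of Hoxc4. Hoxc4 held 15 counts in each wt library (1.00 and 1.17 CPM) and 0 in both Hox-/- libraries. The upper limit of its exact interval in Hox-/- was 14.5% of wt. With 3 counts over the Hox-/- group as the floor for a count of 0, it was 9.05-fold higher in wt. Such a floor fold takes the wt count as exact and is not a limit of the interval. Hoxc4 was the 1 member of 7 that passed the filter on low counts. The quasi-likelihood test of edgeR called it lower in Hox-/- (adjusted p = 2.15e-05), where 10.8% of all tested genes were called lower. The other 6 genes held 0 to 7 counts in wt and 0 to 2 in Hox-/- libraries and were not tested. Hoxb4 held 8 counts over the wt group and 0 over the Hox-/- group (upper limit of the exact interval 64.7% of wt). For the other 5 the interval included the wt level, so no difference was detectable at this depth.

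**Figure D1:**
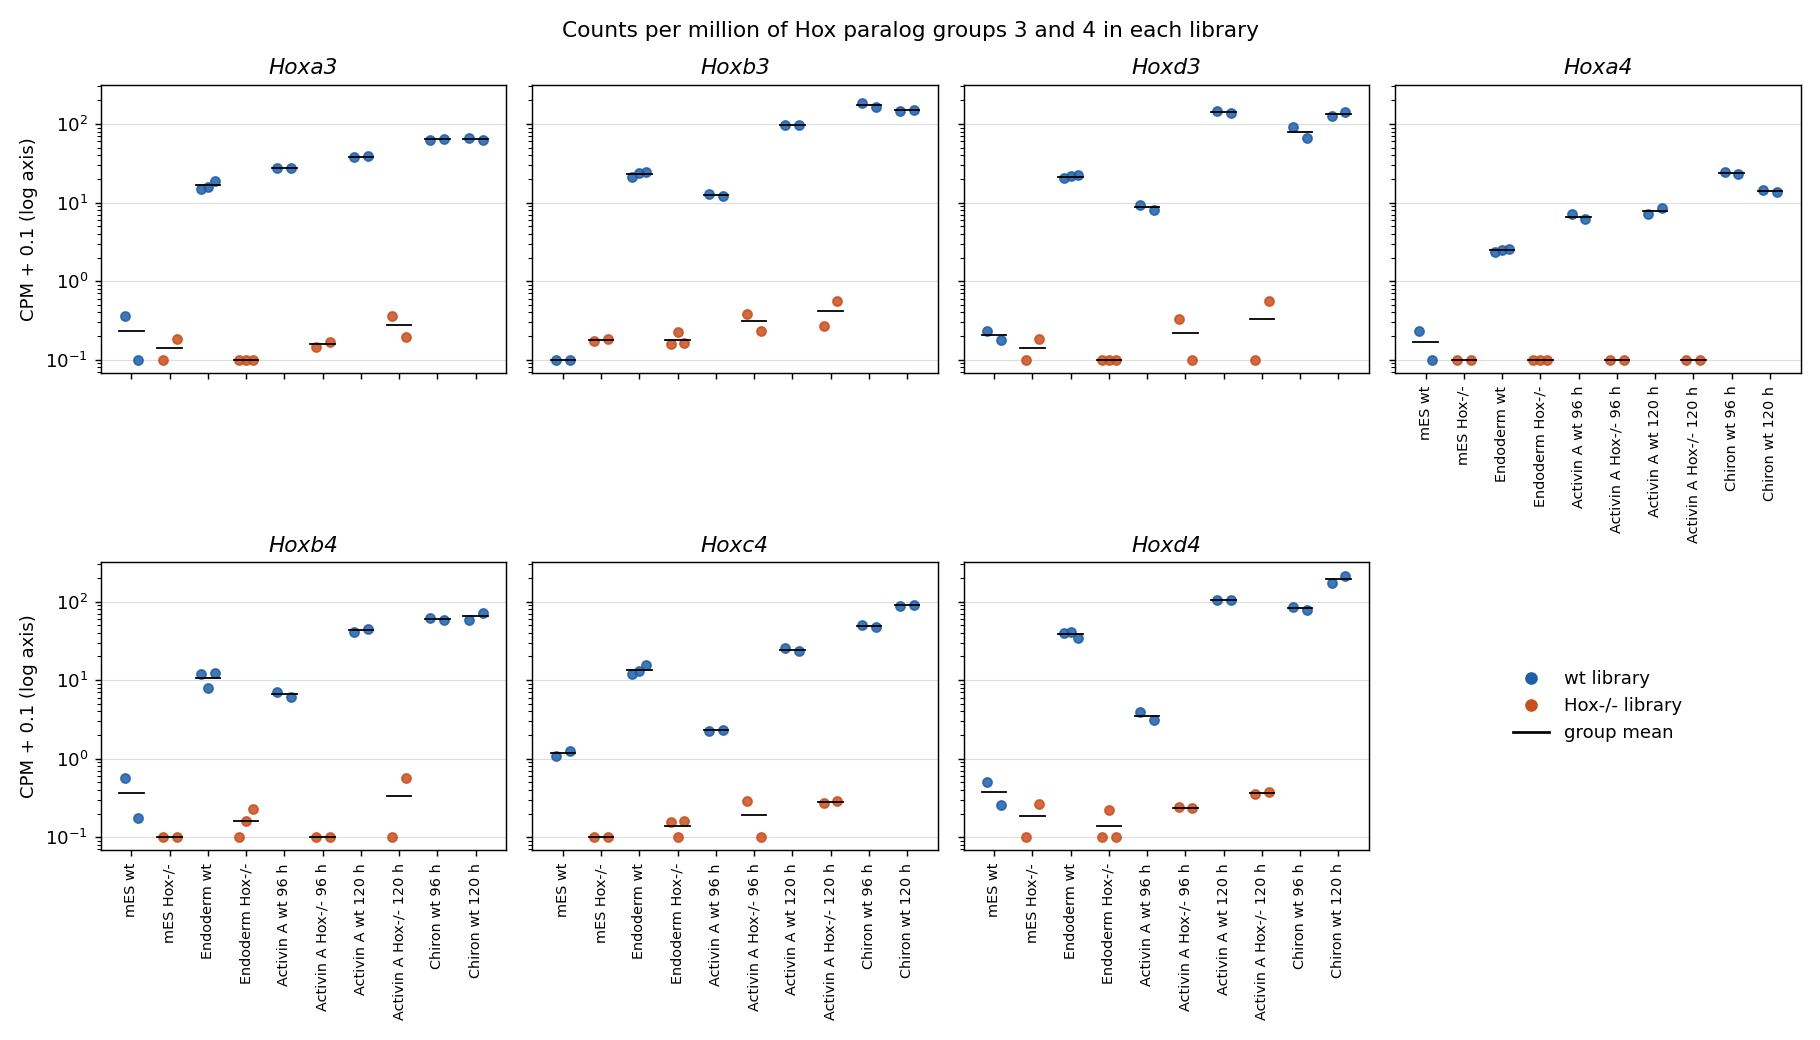
Level (CPM + 0.1, log axis) of each gene in every library, by group; blue points are wt libraries, orange points Hox-/- libraries and black lines group means. In all differentiated groups the wt points sit above 2 CPM and the Hox-/- points below 0.5 CPM, and from 96 h to 120 h of Activin A the wt points of Hoxd4 and Hoxd3 move furthest.

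In endoderm cultures all 7 genes were expressed in wt and close to absent in Hox-/-. Hoxd4, the most abundant of them in counts, held 40.2, 41.3 and 34.5 CPM in the wt libraries. Hoxb3 held 20.8, 23.8 and 24.4 CPM, and Hoxd3 20.2, 21.6 and 22.2 CPM. The wt libraries of each of these genes lay close together and far above every Hox-/- library.

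Hoxa3, which acts in the pharyngeal endoderm and arches that form the thymus and parathyroid, held 14.9, 15.5 and 18.8 CPM in wt endoderm cultures. Hoxc4 held 11.8, 13 and 15.6 CPM, and Hoxb4, known for expanding blood progenitors when overexpressed, held 11.8, 7.85 and 12.2 CPM. Hoxb4 replicate 2 was the low library. Hoxa4 was lowest, at 2.27, 2.37 and 2.48 CPM. Compared with wt mES cells, in 1 fit over both tables, edgeR called all 7 higher (41.6% of all genes were called higher). Hoxc4, the member present in mES cells, rose by 3.52 on the log2 scale (SE 0.229, adjusted p = 3.55e-11). The fitted values of the others rest on mES counts of 0 to 7.

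The Hox-/- endoderm libraries held 11 counts of the 7 genes in all, against 5188 in wt, which is 0.176% of the wt level after scaling by library totals (95% exact Clopper-Pearson interval 0.0876% to 0.315%, counting error only). Hoxa3, Hoxd3 and Hoxa4 held 0 counts in all 3 libraries, with upper limits of 0.453%, 0.348% and 3.18% of wt. At the same floor of 3 counts over the group they were 272-fold (Hoxa3), 354-fold (Hoxd3) and 39.4-fold (Hoxa4) lower than in wt. Hoxb3 retained 4 counts (0.348% of wt, interval 0.0947% to 0.895%), Hoxb4 3 counts (0.575%, interval 0.118% to 1.69%), and Hoxc4 and Hoxd4 2 counts each (0.298%, interval 0.0360% to 1.08%, and 0.104%, interval 0.0126% to 0.376%). edgeR called all 7 lower, beside 23.1% of all tested genes. The endoderm marker list was lower as well in Hox-/- (8 of 8 genes called lower, none at 0), and its part in these values was not tested.

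Wild-type Activin A gastruloids at 96 h had a profile led by the Hoxa cluster. Hoxa3 held 27.8 and 27.2 CPM. Hoxb3 held 12.7 and 12.1 CPM and Hoxd3 9.33 and 7.91 CPM. Group 4 was lower: Hoxa4 and Hoxb4 lay between 5.97 and 7.02 CPM, Hoxd4 held 3.78 and 2.98 CPM, and Hoxc4 2.18 and 2.25 CPM. Per kilobase of exon, which allows genes to be compared, the order was Hoxa3 (10.3 CPM per kb), Hoxa4 (4.07), Hoxb3 (3.18), Hoxb4 (2.53), Hoxd3 (2.2), Hoxd4 (1.32) and Hoxc4 (0.862). The deposited FPKM values, which are estimated over transcripts, placed Hoxb3 higher, at 10.9 beside 11.6 for Hoxa3.

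At 120 h the order on counts was different, with the Hoxd genes in front. Hoxd3 held 144.4 and 139.3 CPM and Hoxd4 104.4 and 105.3 CPM. Hoxb3 held 95.9 and 97.1 CPM, Hoxb4 40.6 and 44.8 CPM, and Hoxc4 25.2 and 23.1 CPM. Hoxa3, at 37.5 and 38.9 CPM, and Hoxa4, at 7.13 and 8.34 CPM, were the genes that stood closest to their 96 h level. Per kilobase the order became Hoxd4 (41.0 CPM per kb), Hoxd3 (36.2), Hoxb3 (24.8), Hoxb4 (16.6), Hoxa3 (14.4), Hoxc4 (9.39) and Hoxa4 (4.86). On counts, Hoxa3 thus went from rank 1 to rank 5 and Hoxd4 from rank 6 to rank 1. On the deposited FPKM values Hoxb3 was highest, at 53.1, before Hoxd4 (46.4) and Hoxd3 (45.4).

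The time contrast in wt Activin A gastruloids asks which of the genes changed from 96 h to 120 h. edgeR called 6 of the 7 higher at 120 h, and 37.2% of all tested genes. Hoxd4 rose 31.0-fold in mean CPM (log2 fold change 4.89, SE 0.093, adjusted p = 2.69e-41), and Hoxd3 16.5-fold (3.97, SE 0.082, adjusted p = 1.17e-39). Hoxc4 rose 10.9-fold, Hoxb3 7.78-fold and Hoxb4 6.58-fold, with log2 fold changes of 3.37, 2.89 and 2.65. Hoxa3 rose 1.39-fold (log2 fold change 0.40, SE 0.079, adjusted p = 1.46e-05), a call that limma on log2(FPKM + 0.1) did not make (0.34, adjusted p = 0.173). Hoxa4 did not pass the test (log2 fold change 0.18, SE 0.17, adjusted p = 0.331), although its 120 h libraries lay just above its 96 h ones. Within a cluster, the group 4 gene rose more than the group 3 gene in Hoxd. On counts, the values in Hoxb (2.65 and 2.89) and Hoxa (0.18 and 0.40) were ordered the other way. These differences between genes were not tested. The Hoxb order depends on the measure: on the deposited FPKM values Hoxb4 went from 2.40 to 13.8 and Hoxb3 from 10.9 to 53.1, the larger relative rise being that of Hoxb4.

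Other measures moved with time in the same libraries, and their part in these values was not tested. The libraries held 22.5 and 25.8 M counts at 96 h and 9.25 and 9.11 M at 120 h. The mES list fell from between 1035 and 1059 CPM at 96 h to between 75.2 and 76.0 CPM at 120 h, with 5 of 6 genes called lower (37.8% of all genes were called lower). The presomitic and somitic list (6 genes such as Tbx6 and Meox1) summed to 120 to 130 CPM at 96 h and 371 to 378 CPM at 120 h, with 4 genes called higher and 2 lower. The caudal progenitor list (6 genes such as T and Cdx2) fell from 2855 to 2970 CPM to 654 to 658 CPM, with 5 of 6 called lower, and the neural list (5 genes such as Sox1 and Tubb3) went from 21.4 to between 64.6 and 67.0 CPM, with 4 of 5 called higher. No gene of these 4 lists was at 0.

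In Chiron gastruloids the genes were already high at 96 h. Hoxb3 was at 185.4 and 164.6 CPM, the highest level of any of the 7 at that time. Hoxd3 held 90.3 and 66.1 CPM and Hoxd4 84.2 and 78.6 CPM. Hoxa3 (63.3 and 63.7 CPM), Hoxb4 (62.2 and 57.8 CPM) and Hoxc4 (49.7 and 47.9 CPM) followed, and Hoxa4 (24.1 and 22.7 CPM) was lowest. Hoxd3 was the gene whose 2 libraries stood furthest apart. Per kilobase the 7 genes were less spread than under Activin A, from 14.7 CPM per kb for Hoxa4 to 45.0 for Hoxb3.

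At 120 h of Chiron, Hoxd4 had become the highest, at 173.0 and 213.8 CPM. Hoxb3 held 145.5 and 151.8 CPM and Hoxd3 124.9 and 143.2 CPM. Hoxc4 held 88.7 and 89.2 CPM, Hoxb4 58.8 and 70.9 CPM, Hoxa3 65.3 and 62.3 CPM and Hoxa4 14.3 and 13.4 CPM. edgeR called 3 genes higher at 120 h than at 96 h (28.5% of all genes were called higher) and 2 lower (33.2% lower). Hoxd4 rose by 1.14 on the log2 scale (SE 0.071, adjusted p = 2.20e-12), Hoxc4 by 0.76 and Hoxd3 by 0.68. Hoxa4 fell by 0.85 (SE 0.108, adjusted p = 3.15e-07) and Hoxb3 by 0.34. Hoxa3 (log2 fold change -0.10) and Hoxb4 (0.00) did not pass, and their 96 h and 120 h libraries overlapped. The Chiron libraries too were deeper at 96 h (20.5 and 28.8 M) than at 120 h (11.9 and 9.43 M), whose part was not tested.

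**Figure D2:**
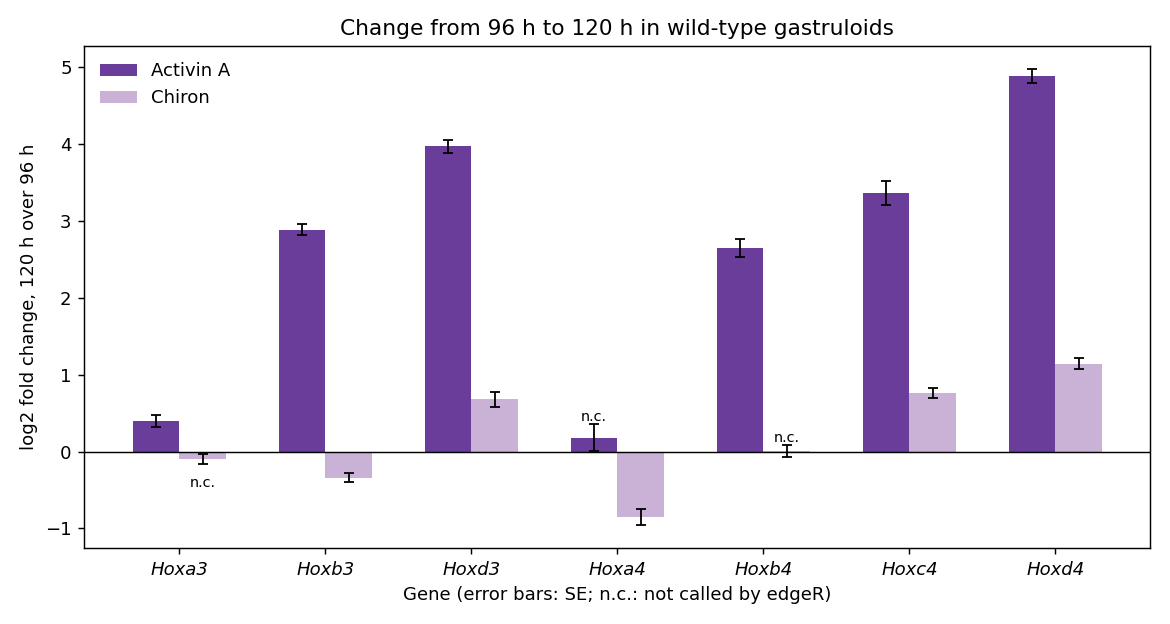
Log2 fold change from 96 h to 120 h (bars, edgeR) with SE (error bars) of each gene in wt Activin A (dark) and Chiron (light) gastruloids; n.c. marks genes that were not called. Under Activin A the values reach 4.89 for Hoxd4 and stay at 0.40 and 0.18 for Hoxa3 and Hoxa4, whereas under Chiron they lie between -0.85 and 1.14.

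The difference between the 2 time courses was itself tested, as a treatment by time interaction. The log2 change from 96 h to 120 h was higher under Activin A than under Chiron for all 7 genes, and 21.7% of all tested genes were called in this direction. The difference in log2 fold change was 3.73 for Hoxd4 (SE 0.144, adjusted p = 8.53e-16), 3.28 for Hoxd3, 3.21 for Hoxb3, 2.63 for Hoxb4 and 2.59 for Hoxc4. It was smallest for the Hoxa genes, at 1.02 for Hoxa4 (SE 0.190, adjusted p = 1.49e-04) and 0.48 for Hoxa3 (SE 0.099, adjusted p = 4.50e-04). For Hoxa4 the difference came with a value of 0.18 under Activin A, which did not pass, and a fall under Chiron.

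The treatment contrasts compare wt Activin A with wt Chiron gastruloids at the same age, and use the same 4 Activin A libraries as the time contrast. At 96 h all 7 genes were lower under Activin A, where edgeR called 30.2% of all genes lower. Hoxd4 was at 4.15% and Hoxc4 at 4.53% of the Chiron mean (log2 fold changes -4.66, SE 0.111, and -4.52, SE 0.10; adjusted p = 1.19e-20 and 2.78e-21). Hoxb3 was at 7.09%, Hoxb4 at 10.8% and Hoxd3 at 11%. The Hoxa genes were the least different, with Hoxa4 at 27.7% and Hoxa3 at 43.3% (log2 fold changes -1.91 and -1.27).

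By 120 h the levels had drawn closer. edgeR called 6 of the 7 lower under Activin A, beside 21.6% of all genes. Hoxc4 was the furthest apart, at 27.1% of the Chiron mean (log2 fold change -1.93, SE 0.079, adjusted p = 1.74e-15). Hoxd4 was at 54.2%, Hoxa4 at 55.9%, Hoxa3 at 59.8%, Hoxb3 at 64.9% and Hoxb4 at 65.8%. Hoxd3 did not pass (log2 fold change 0.03, SE 0.096, adjusted p = 0.805), and its Activin A libraries (139.3 and 144.4 CPM) and Chiron libraries (124.9 and 143.2 CPM) overlapped. The call of Hoxb3 rests on the counts: on the deposited FPKM values, which are estimated over transcripts, Hoxb3 gave a log2 difference of 0.04 that limma did not call.

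**Figure D3:**
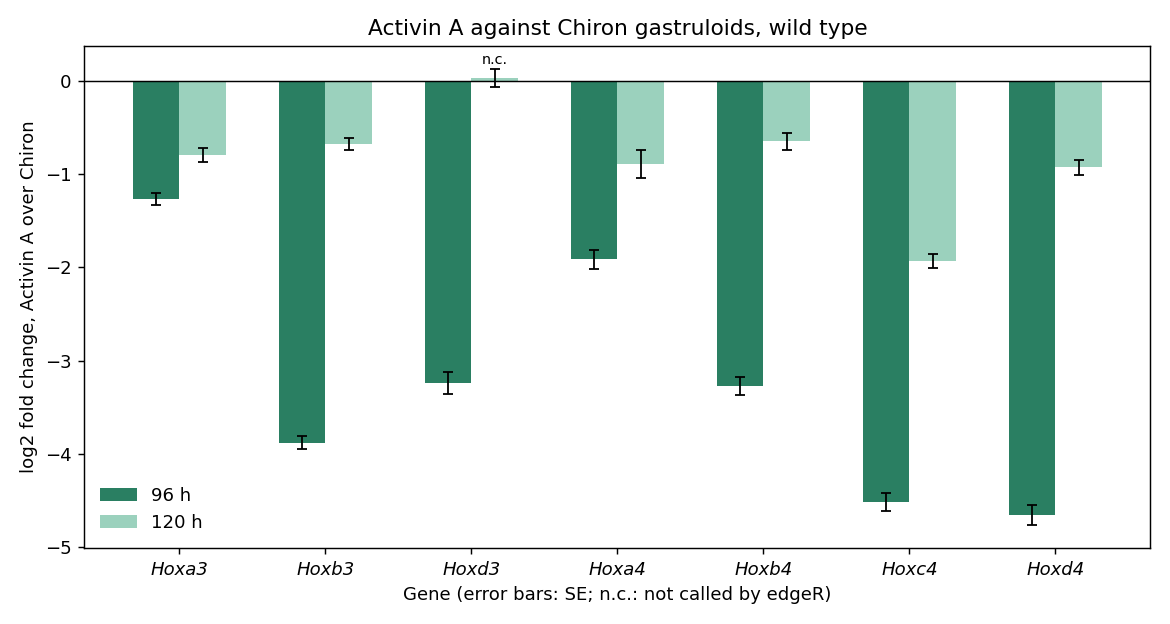
Log2 fold change of Activin A over Chiron in wt gastruloids (bars, edgeR) with SE (error bars) at 96 h (dark) and 120 h (light). At 96 h the values run from -1.27 for Hoxa3 to -4.66 for Hoxd4, and at 120 h from -1.93 for Hoxc4 to 0.03 for Hoxd3, which was not called.

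Marker lists of other cell types differed between the treatments too, and their part in these values was not tested. At 96 h the endoderm list summed to 704 to 795 CPM under Activin A and 180 to 212 CPM under Chiron (7 of 8 genes called higher and 1 lower, with 31.3% of all genes called higher), and at 120 h to 766 to 776 and 85.1 to 87.1 CPM (8 of 8 higher, with 20.3% of all genes). The presomitic and somitic list summed to 120 to 130 CPM under Activin A and 568 to 663 CPM under Chiron at 96 h (6 of 6 lower), and to 371 to 378 and 739 to 780 CPM at 120 h (5 of 6 lower). The mES list summed to 1035 to 1059 CPM under Activin A and 204 to 276 CPM under Chiron at 96 h (2 of 6 called higher and 2 lower), and to 75.2 to 76.0 and 267 to 278 CPM at 120 h (5 of 6 lower). No gene of these lists was at 0.

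The share that each cluster contributed to the 7 genes' summed CPM changed with culture. In Activin A gastruloids the Hoxa pair made up 50.7% ± 1.24 (SD, n = 2) of the sum at 96 h and 10.1% ± 0.374 at 120 h, while the Hoxd pair went from 17.8% ± 1.33 to 54.1% ± 0.784. The Hoxb pair contributed 28.2% and 30.5%, and Hoxc4 3.31% and 5.29%. In Chiron gastruloids the Hoxb pair led at 96 h with 44.3% ± 0.0462 and the Hoxd pair at 120 h with 46.2% ± 2.49. Endoderm cultures gave 47.7% ± 3.63 (n = 3) for the Hoxd pair and 14.9% ± 1.27 for the Hoxa pair. The libraries of the 2 ages did not overlap for the Hoxa or the Hoxd pair under either treatment.

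**Figure D4:**
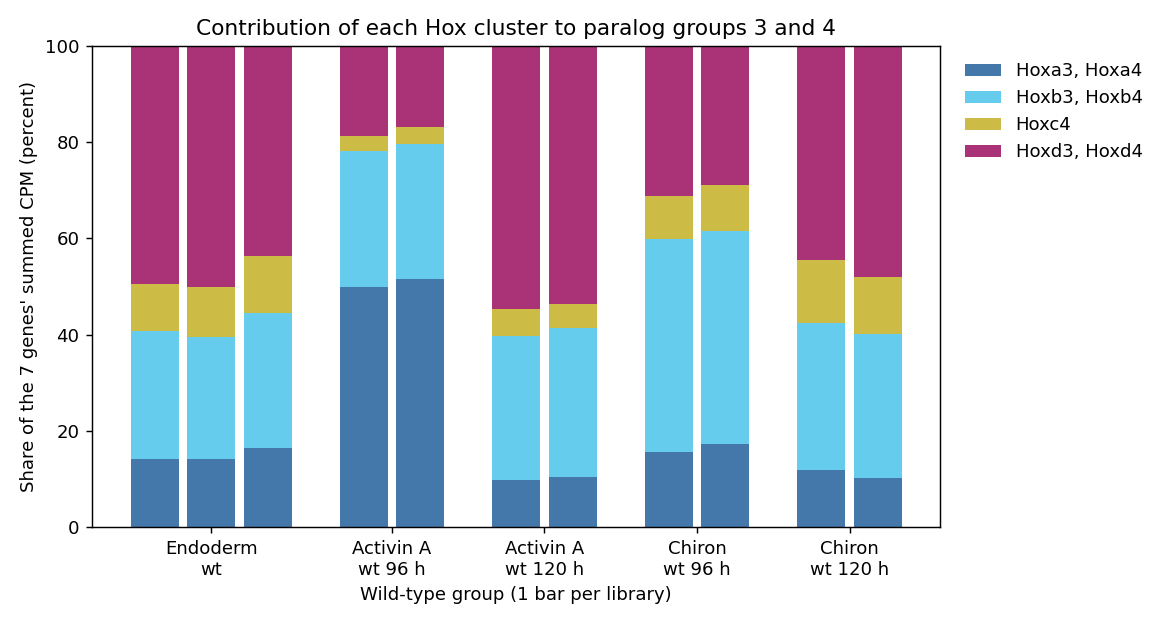
Share (percent) of the summed CPM of the 7 genes that came from each Hox cluster, 1 bar per wt library. The Hoxa share is 50.7% in Activin A gastruloids at 96 h and 10.1% to 16.4% in the other groups shown, and the mean Hoxd share lies between 46.2% and 54.1% in endoderm cultures and in both 120 h gastruloid groups.

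Within a cluster, the ratio of the group 4 to the group 3 gene compares the same pair of gene lengths across cultures. Hoxd4 over Hoxd3 in CPM was 0.391 ± 0.0193 (SD, n = 2) at 96 h and 0.739 ± 0.0231 at 120 h of Activin A, and 1.06 ± 0.181 and 1.44 ± 0.0757 at the same ages of Chiron. It was 1.82 ± 0.231 (n = 3) in endoderm cultures. These 5 groups did not overlap. Hoxb4 over Hoxb3 moved much less on counts, from 0.343 ± 0.0109 in Chiron gastruloids at 96 h to 0.523 ± 0.0416 in Activin A gastruloids at 96 h. The endoderm libraries alone ran from 0.330 to 0.570 (0.467 ± 0.124, n = 3), a range that holds both of these means. The order of the Chiron and Activin A groups at 96 h turned on the deposited FPKM values. There Hoxb4 and Hoxb3 were at 20.9 and 63.7 under Chiron at 96 h, and at 2.40 and 10.9 under Activin A at 96 h. The cause of this disagreement was not tested. Hoxa4 over Hoxa3 ran from 0.146 ± 0.0121 in endoderm cultures to 0.369 ± 0.0172 in Chiron gastruloids at 96 h.

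Set across tables, which were processed separately and so carry no test, each gene had its own order of wt levels. Hoxb3 and Hoxa4 were highest in Chiron gastruloids at 96 h, and Hoxc4 and Hoxd4 in Chiron gastruloids at 120 h. The 2 highest groups overlapped for Hoxa3 (Chiron at 120 h and 96 h, 63.8 and 63.5 CPM), Hoxb4 (Chiron at 120 h and 96 h, 64.9 and 60.0 CPM) and Hoxd3 (Activin A and Chiron at 120 h, 141.9 and 134.1 CPM). Hoxa3 and Hoxa4 were higher in Activin A gastruloids at 96 h (27.5 and 6.49 CPM) than in endoderm cultures (16.4 and 2.38 CPM). The other 5 genes stood the other way round, with Hoxd4 at 3.38 CPM in the former and 38.6 CPM in the latter. Age and culture differ together in that comparison. Against Activin A gastruloids of the same age, 120 h, levels in endoderm cultures ran from 15.0% of the gastruloid mean for Hoxd3 to 55.8% for Hoxc4. The share of all genes that were lower in this comparison was not computed.

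As a share of all reads on the 39 Hox genes, the 7 genes made up 10.4% in wt Activin A gastruloids at 96 h and 38.7% at 120 h. In the same groups, paralog groups 1 and 2 (5 genes) made up 82.6% and 22.7%, and groups 5 to 7 (8 genes) 4.45% and 8.50%. In Chiron gastruloids the 7 genes held 27.4% and 33.5% at the 2 ages, and in endoderm cultures 14.7%, where groups 8 to 13 held 65.2%.

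In Hox-/- Activin A gastruloids edgeR called all 7 genes lower than wt at both ages, beside 16.7% of all genes called lower at 96 h and 25.5% at 120 h. At 96 h the 2 Hox-/- libraries held 24 counts of the 7 genes, against 3232 in wt (0.987%, interval 0.632% to 1.47%). Hoxa4 and Hoxb4 held none and were at least 78.2-fold lower, and Hoxb3, with 8, held the most. At 120 h they held 31 counts against 8371 (0.305%, interval 0.207% to 0.433%), with none for Hoxa4, which was at least 57.5-fold lower. As a ratio of mean CPM the remainder was 0.911% at 96 h, and 0.498% without Hox-/- replicate 1. At 120 h it was 0.310%, and 0.189% without Hox-/- replicate 2. Endoderm markers were lower in the Hox-/- gastruloids (7 of 8 called lower at either age, with sums of 202 and 202 CPM at 96 h and 166 and 171 CPM at 120 h), and their part was not tested.

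Paralog groups differed in how much was read in Hox-/- cells. Groups 1 and 2 stood at 16.2% of wt in endoderm cultures (interval 15.0% to 17.5%), 11.4% in Activin A gastruloids at 96 h and 14.2% at 120 h. Groups 5 to 7 stood at 0.242%, 1.2% and 0.582%. The counting intervals of groups 3 and 4 lay apart from those of groups 1 and 2 in all 3 cultures and overlapped those of groups 5 to 7. Groups 8 to 13 were at 1.70%, 262% and 7.50% of wt. Most of their Hox-/- level in gastruloids came from 1 gene, Hoxa13, which was at 39.6 ± 0.525 CPM (SD, n = 2) against 0.321 ± 0.203 in wt at 96 h and at 21.1 ± 0.879 against 0.219 ± 0.156 at 120 h.

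**Figure D5:**
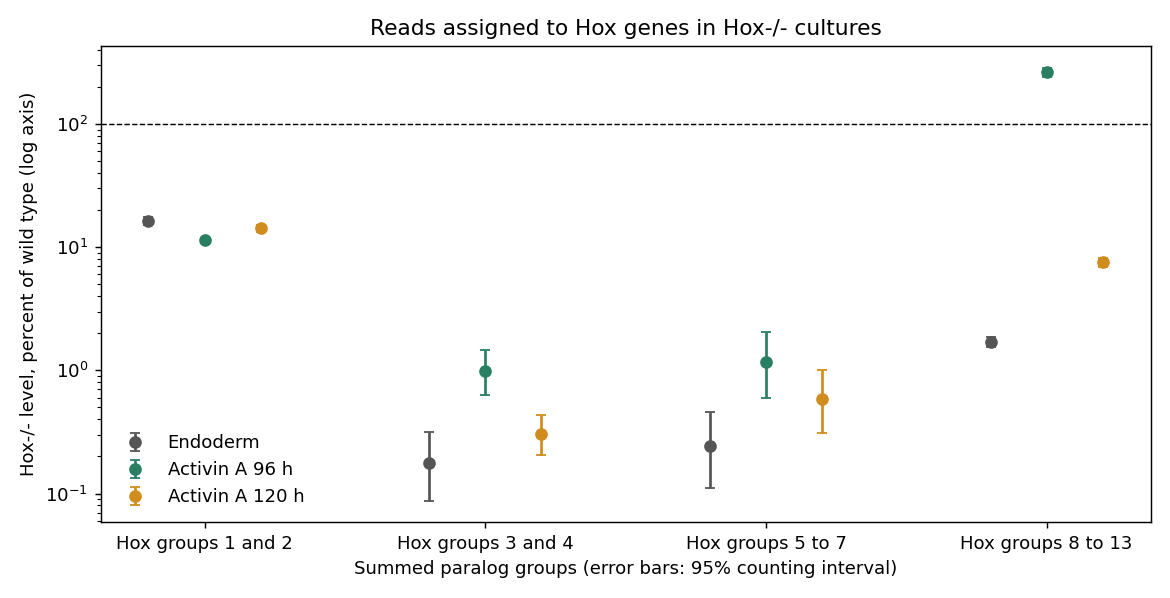
Level in Hox-/- libraries as percent of wt (log axis) for the summed counts of 4 sets of Hox paralog groups in endoderm cultures and in Activin A gastruloids at 96 h and 120 h; error bars are 95% counting intervals and the dashed line is the wt level. Groups 3 and 4 sit at 0.176%, 0.987% and 0.305%, below groups 1 and 2 at 11.4% to 16.2%.

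Changes with time or differentiation were weak to read in Hox-/- cells, because each library held 0 to 6 counts of a gene. From 96 h to 120 h of Activin A, edgeR called 1 member, Hoxb4, higher (34.9% of all genes were called higher), on 0 and 0 counts at 96 h and 0 and 5 at 120 h. The genotype by time interaction asks whether the time course differed between genotypes. It was called lower in Hox-/- for 3 genes (20.2% of all genes): Hoxd4 (-3.97, SE 0.996, adjusted p = 0.00111), Hoxd3 (-3.31, SE 1.11, adjusted p = 0.0146) and Hoxb3 (-2.40, SE 0.763, adjusted p = 0.00976). Without replicate 1 of the Hox-/- libraries at either age, 1 of the 3 passed, and for Hoxd3 the sign turned (0.85) without the 96 h one. The genotype by differentiation interaction was called lower for Hoxa3, Hoxb3, Hoxd3 and Hoxd4 (12.5% of all genes), with Hox-/- counts of 0 to 2 per library, and for 1 gene without Hox-/- mES replicate 2.

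The noncoding RNAs of the clusters form a list of 9, of which Gm53 lies upstream, between Hoxb13 and Hoxb9, and the others beside or opposite the early genes. In Hox-/- cells edgeR called 7 of the 7 tested lower in endoderm cultures (median log2 change -8.02, against 0.00 over all genes), 6 of 7 at 96 h (-4.87 against 0.03) and 7 of 7 at 120 h of Activin A (-8.55 against -0.02). Over all genes, 23.1%, 16.7% and 25.5% were called lower in these contrasts. From 96 h to 120 h of wt Activin A, 7 of 7 rose (median 3.45), beside 37.2% of all genes. Hoxb3os, which lies opposite Hoxb3, held 56.3 ± 1.84 CPM (SD, n = 2) at 96 h and 145.3 ± 11.3 at 120 h of Activin A, against 81.4 ± 6.42 and 74.1 ± 6.77 under Chiron. Like Hoxb3, it rose with time under Activin A (log2 fold change 1.29), fell under Chiron (-0.24) and was lower under Activin A at 96 h (-0.59). At 120 h it was higher under Activin A (log2 fold change 0.93, SE 0.074, edgeR adjusted p = 3.99e-10), where Hoxb3 was called lower on counts and not on FPKM.

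Of 14 known regulators of these genes, edgeR called 8 higher and 6 lower from 96 h to 120 h of wt Activin A (median log2 change 0.30, against 0.00 over all genes). Over all genes the same test called 37.2% higher and 37.8% lower. Rarb, a retinoic acid receptor that is itself induced by retinoic acid, rose from 1.20 ± 0.38 to 29.7 ± 0.174 CPM (SD, n = 2). Cdx1 and Cdx2, caudal homeobox activators of Hox genes, fell from 197.1 ± 18.2 to 12.1 ± 1.87 CPM and from 245.1 ± 3.63 to 90.0 ± 1.69 CPM. At 96 h the list was mostly lower under Activin A than under Chiron (10 lower and 2 higher, median -0.73), beside 30.2% of all genes lower and 31.3% higher. Cdx4 was at 1.89 ± 0.534 against 108.8 ± 2.10 CPM, and Aldh1a2, the enzyme that makes retinoic acid in the early trunk, at 54.9 ± 1.19 against 354.3 ± 75.4 CPM. At 120 h 7 were higher and 6 lower (median 0.42), beside 20.3% of all genes higher and 21.6% lower.

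In Hox-/- cells the same regulators moved both ways. edgeR called 6 up and 5 down at 96 h of Activin A, 8 up and 5 down at 120 h, and 6 up and 5 down in endoderm cultures, with medians of 0.09, 0.38 and 0.15. Over all genes the same test called 22.2% up and 16.7% down at 96 h, 24.9% up and 25.5% down at 120 h, and 23.1% in each direction in endoderm cultures. Cdx1 was higher in Hox-/- gastruloids at both ages: its means were 579.0 ± 30.6 and 197.1 CPM at 96 h, and 141.6 ± 6.12 and 12.1 CPM at 120 h. Aldh1a2 changed in opposite directions, being lower in Hox-/- at 96 h (17.9 ± 1.70 CPM, wt 54.9) and higher at 120 h (272.9 ± 0.338 CPM, wt 121.8). Cyp26a1, which degrades retinoic acid, was lower at both ages, at 24.3 ± 4.74 against 102.6 CPM and 35.3 ± 2.16 against 134.6 CPM.

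Hox cofactors of the TALE class (Meis, Pbx and Pknox genes) also moved both ways with genotype. Of 9, edgeR called 2 up and 4 down in Hox-/- Activin A gastruloids at 96 h, 6 up and 2 down at 120 h, and 4 up and 2 down in endoderm cultures, with medians of 0.02, 0.30 and 0.12, to be read against the same shares of all genes. Meis1 had the largest change with time in wt Activin A gastruloids among the 9, from 1.44 ± 0.286 to 65.6 ± 1.66 CPM (log2 fold change 5.44, SE 0.116, edgeR adjusted p = 4.95e-39). It was also lower under Activin A than under Chiron at 96 h (-4.24, SE 0.174) and did not pass at 120 h (0.03, SE 0.103).

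Pharyngeal genes placed downstream of paralog group 3 form a list of 8. In Hox-/- Activin A gastruloids at 120 h, 3 of the 6 tested were lower and 2 higher (median log2 change -0.14), where 25.5% of all genes were lower and 24.9% higher. Pax9, a regulator of pharyngeal pouches, was at 0.503 ± 0.346 against 9.20 ± 1.36 CPM in wt (SD, n = 2). Eya1, which acts in thymus and parathyroid formation, was higher (57.3 ± 1.33 CPM in Hox-/- and 35.1 in wt). In endoderm cultures 2 of 5 were lower and 2 higher, with Pax9 at 0.205 ± 0.157 against 4.63 ± 0.989 CPM (n = 3) and Eya1 at 3.72 ± 0.139 against 9.86 ± 0.726 CPM. Foxn1 and Gcm2, the thymus and parathyroid determinants, were at or under 0.1 CPM in all differentiated groups. Of 6 caudal hindbrain genes, 5 could be tested at 120 h and 4 were lower in Hox-/- (median -4.16): Nkx6-1, Olig2, Isl1 and Pax6. Olig2, a motor neuron progenitor gene, was at 0.226 ± 0.0765 against 10.1 ± 0.428 CPM. In the same contrast the neural list went from 64.6 to 67.0 CPM in wt to 28.5 to 30.3 CPM in Hox-/- (4 of 5 genes called lower and 1 higher), and the presomitic and somitic list from 371 to 378 CPM to 633 to 642 CPM (5 of 6 called higher). No gene of either list was at 0, and their part in these values was not tested.

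Genes outside the Hox clusters were ranked by the likeness of their pattern to the summed CPM of each paralog group, as Pearson's r of log2(mean CPM + 1) over the 10 group means, among 13220 genes. This describes 10 points whose libraries and depths are shared, and it carries no p. The highest values for group 3 were those of Ppt1 (0.92), a lysosomal thioesterase, Atp6v0a1 (0.91), a proton pump subunit, Mertk (0.89), Gprc5b (0.89) and Grb10 (0.88), an adaptor of growth factor receptors. For group 4 they were Gprc5b (0.91), Ppt1 (0.90), Mertk (0.89), Spg21 (0.88) and Grb10 (0.87). The 7 genes themselves lay between 0.94 and 0.99. Each sum contains its own members, so their values are high in part by construction and are not comparable with those of outside genes. Ppt1 moved over a small range, from 47.8 CPM in wt mES cells to 80.9 CPM in Chiron gastruloids at 120 h, while Grb10 was at 428.1 CPM in wt and 4.91 CPM in Hox-/- Activin A gastruloids at 120 h.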

How the data were processed

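RNA was poly(A)-selected and libraries were prepared with a kit that keeps strand, per the labels' protocols. Reads were processed with cutadapt 1.16, STAR and Cufflinks 2.2.1 on mm10, per the submitters' processing notes, which give no roles. The tables deposited by the authors hold raw counts per Ensembl gene and, separately, FPKM values. Positions are printed here as 1-based, converted from the deposited starts. All library columns matched a sample, and the 4 wt Activin A columns were identical in both gastruloid tables. Groups came from the sample titles. FPKM is listed at 0 for Hoxa4 in 9 of the 11 libraries with more than 3 counts of it, up to 654 counts, so the tests use counts.

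Counts were tested with edgeR 4.0.16 in R 4.3.3: filterByExpr, TMM scaling, 1 coefficient per group, quasi-likelihood test, Benjamini-Hochberg adjustment over all genes of a table, and a call at an adjusted p under 0.05. Each table was fitted on its own and mES with endoderm libraries once together, for 14 contrasts. The median log2 change over all genes stayed within 0.1 of 0 in each. CPM divides by the library total. The code was tested on simulated data.

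Every member was named. From each list at most 5 called genes with the smallest p were named in a contrast, and others for contrast after their values were seen. The members and lists were chosen with earlier results of these data known. Intervals cover counting error, as the tables show no molecular identifiers, and floors take the wt count as exact. Alternatives were other scalings, filters, DESeq2 1.42.0, limma 3.58.1 on log2 FPKM, the replicate block, and leaving out each library.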

Additional observations from a re-analysis of the deposited data

Results flagged for a closer look

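The following results stand out because an effect differed between groups in an edgeR test of the difference itself. The log2 change from 96 h to 120 h was higher under Activin A than under Chiron for all 7 genes, by 0.48 for Hoxa3, 3.21 for Hoxb3, 3.28 for Hoxd3, 1.02 for Hoxa4, 2.63 for Hoxb4, 2.59 for Hoxc4 and 3.73 for Hoxd4. Hoxa4 was not called under Activin A (0.18) and fell under Chiron. The time course of Activin A gastruloids differed between genotypes for Hoxb3 (-2.40), Hoxd3 (-3.31) and Hoxd4 (-3.97), lower in Hox-/-. The change from mES cells to endoderm cultures differed between genotypes for Hoxa3 (-9.16), Hoxb3 (-11.39), Hoxd3 (-9.92) and Hoxd4 (-7.83). Values that involve Hox-/- cells rest on 0 to 6 counts per library, so their size is not well determined.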

How the results depend on the processing

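Over the alternatives, 960 values of single members were labelled unchanged, meaning the same direction and the same side of the threshold. Main values too small to be given a direction could not be labelled reversed. Hoxb4 with time under Chiron was such a value (0.00175, and -0.132 to 0.117 with a library left out). Of the counts and sums, 215 were labelled unchanged. For a sum this means within the replicate spread. For a count of called members it means near the main count and not equal to it, such as 4 on FPKM against 6 in the 120 h treatment. A further 17 single values lost their call, 8 of them on FPKM (Hoxa4 in 6, Hoxc4 in mES cells, Hoxa3 with time under Activin A) and 9 with a library left out of the genotype interactions. With limma on FPKM (with pseudocounts of 1 and 0.1), Hoxa4, listed at 0 in most libraries, reversed with time under wt Activin A (-3.04 and -6.20), in the 96 h treatment (3.04 and 6.20) and in the treatment by time interaction (-3.04 and -6.20). Hoxb3 at 120 h of treatment also reversed (0.0382 and 0.0389). The cause was not tested for Hoxb3. FPKM gave 0 called members in mES cells (pseudocount 1, adjusted p = 0.0696 for Hoxc4), 0 with time in Hox-/- under both pseudocounts, and 6 and 5 in genotype by time. The sum over the members was 19.3% of Chiron at 96 h and 70.1% at 120 h on FPKM, against 12.7% and 64.4% on counts.

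Scaling by library totals alone reversed Hoxa3 with time under Chiron (0.00973), and leaving out Chiron replicate 1 at 120 h reversed Hoxd3 in the 120 h treatment (-0.0572, range -0.0572 to 0.120), neither of which is called. Leaving out libraries in turn gave 0 to 2 members called with time in Hox-/-, 1 to 4 in genotype by time, where Hoxd3 ran from -8.26 to 0.854, reversing without Hox-/- replicate 1 at 96 h, and 1 to 4 in genotype by differentiation. The mES sum in Hox-/- was 12.8% of wt, and 3.86% to 21.7% with a library left out.

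Replicate numbers did not pair the libraries (correlations of deviations -0.241 to 0.235), and the replicate block changed no call of a member: 1 in mES cells and 7 in endoderm cultures as without it. A filter of at least 10 counts in every library left no member in the fits with Hox-/- libraries, and DESeq2 gave no adjusted p for Hoxc4 in mES cells. Depth limits all Hox-/- values.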
